A study of Mus musculus with 4 samples.

Results

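The 9 serotonin receptor genes Htr1a, Htr1b, Htr1d, Htr1f, Htr2a, Htr2c, Htr4, Htr5a and Htr7 were followed across the nuclei of the mouse lateral septum (LS). They were identified by their symbols in the gene table and make up 9 of its 32285 genes. Each count is a unique molecular identifier (UMI), which stands for 1 captured RNA molecule of 1 nucleus. The LS was dissected from male mice aged 6-8 weeks per the labels, frozen, and sequenced as single nuclei on the 10x Genomics platform, with 3 mice pooled per library. There were 2 libraries of C57J mice (strain C57BL/6JNifdc in the labels), 1 of nude mice (BALB/c nude in the labels, deficient in Foxn1 and without T cells) and 1 of BALB/c mice, and the labels name no treatment. The labels place library C57J 1 in batch 1, and C57J 2, nude and BALB/c in batch 2. The nude and BALB/c groups had 1 library each and no replicate of their own. They were set together against the 2 C57J libraries. The p-values of that comparison measure only the spread between libraries on each side. That spread also holds nude against BALB/c, and batch 1 against batch 2 for C57J.

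Serotonin is made by neurons of the raphe nuclei in the brainstem, whose axons reach the septum. There it acts on G protein-coupled receptors that couple in different directions: the products of Htr1a, Htr1b, Htr1d, Htr1f and Htr5a act through inhibitory Gi/o proteins, those of Htr2a and Htr2c through Gq and phospholipase C, and those of Htr4 and Htr7 through Gs and adenylyl cyclase. The LS is built mainly of GABAergic projection neurons and is known for its part in mood, fear and social behavior.

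The libraries held 72912922 to 125998527 UMIs, and 10913 to 13075 nuclei per library were retained, with a median of 4121 to 8377 UMIs per nucleus; BALB/c was the deepest library. Between 29 and 63 cell barcodes were shared by each pair of libraries. Nuclei were clustered without the serotonin genes, so receptor levels did not define the clusters. Of 38 clusters, 18 were named LS-like neurons, termed LS neurons here, from the markers Trpc4, Dgkg, Homer2 and Ptpn3, whose summed level was 2185 to 2254 CPM (UMIs of a gene per 1000000 UMIs) in them and 461 to 529 CPM in the other neurons. They held 20145 nuclei, and 11 clusters with 11182 nuclei formed the non-LS neurons, including striatal-like and cholinergic-like neurons. A further 15690 nuclei were named non-neuronal, among them astrocytes, oligodendrocytes (OLs), oligodendrocyte precursor cells (OPCs) and microglia. Clusters 9 and 25 scored 0.207 and 0.292 on the LS markers, under the limit of 0.35, and were counted as non-LS neurons. They held 3.54% to 5.99% of the nuclei of a library. LS clusters 27 and 5 were just above the limit, at 0.371 and 0.378. A run with clusters 27 and 5 counted as non-LS neurons was not made. Library C57J 1 held more nuclei than the others of striatal-like clusters 8 (724 against 245 to 363) and 32 (256 against 67 to 131), and of non-LS cluster 34 (321 against 26 to 55).

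The genes differ greatly in size, which matters because nuclear RNA is rich in introns. Positions are those of build GRCm38, on which the files rest as mm10. Htr1a (ENSMUSG00000021721) lies at chr13:105443639-105448122 on the plus strand and has no intron in the annotation. Htr1b (ENSMUSG00000049511) lies at chr9:81628291-81633828 on the minus strand, where 2278 bases overlap the antisense gene D430036J16Rik. Htr1d (ENSMUSG00000070687) lies at chr4:136423524-136444398 on the plus strand, and Htr1f (ENSMUSG00000050783) at chr16:64924729-65105854 on the minus strand, each with a coding sequence in 1 exon. Htr2a (ENSMUSG00000034997) lies at chr14:74640840-74709494 and Htr2c (ENSMUSG00000041380) at chrX:146962513-147197277, both on the plus strand, and Htr2c hosts several small RNA genes on the same strand. Htr5a (ENSMUSG00000039106) lies at chr5:27842149-27855088 on the plus strand, and Htr7 (ENSMUSG00000024798) at chr19:35958734-36057507 on the minus strand. Gene spans ran from 4.48 kb for Htr1a to 235 kb for Htr2c, and exonic lengths from 2.58 kb for Htr1f to 9.33 kb for Htr2c.

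The 250 bases before the RefSeq start (build GRCm38.p6, minus strand) are shown for the 3 receptor genes that were higher in LS neurons than in other neurons, as described further on. CG dinucleotides are in capitals. The RefSeq starts of Htr1f and Htr7 lie inside the genes as placed above. Part of their windows is therefore within the annotated gene.
Htr1b promoter, chr9:81633833-81634082: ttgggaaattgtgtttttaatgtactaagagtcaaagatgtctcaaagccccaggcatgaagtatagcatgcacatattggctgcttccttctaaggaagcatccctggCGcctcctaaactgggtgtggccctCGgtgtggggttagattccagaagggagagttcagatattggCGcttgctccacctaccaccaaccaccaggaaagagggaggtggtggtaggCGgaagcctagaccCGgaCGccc
Htr1f promoter, chr16:65105785-65106034: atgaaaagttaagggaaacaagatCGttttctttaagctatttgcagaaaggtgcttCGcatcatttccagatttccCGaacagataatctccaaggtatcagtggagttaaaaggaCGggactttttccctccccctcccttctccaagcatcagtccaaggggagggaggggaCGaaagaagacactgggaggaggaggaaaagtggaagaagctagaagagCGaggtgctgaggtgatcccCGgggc
Htr7 promoter, chr19:36057361-36057610: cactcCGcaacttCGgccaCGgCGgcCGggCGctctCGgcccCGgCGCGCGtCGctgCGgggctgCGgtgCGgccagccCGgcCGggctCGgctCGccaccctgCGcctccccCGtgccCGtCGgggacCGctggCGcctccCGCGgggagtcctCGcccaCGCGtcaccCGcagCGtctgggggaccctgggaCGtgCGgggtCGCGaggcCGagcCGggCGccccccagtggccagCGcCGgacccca
The Htr7 promoter held 41 CG dinucleotides and was 82% GC, whereas the Htr1b promoter held 6 (52.4% GC) and the Htr1f promoter 7 (49.2% GC). Across 32851 RefSeq promoters of this length the median was 6 CG, with quartiles of 2 and 16, and the median GC content 52.4%. None of the 3 windows held, on either strand, the homeodomain core TAATTA (found in 4.84% of all promoters), the cyclic AMP response element TGACGTCA (1.55%), the GC box GGGCGG (32.7%) or the E-box CANNTG (66.2%). Of the 9 genes, 8 were matched to the RefSeq promoter table, the exception being Htr4.

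The levels of each receptor gene in LS neurons are given here by library, and are not scaled for gene length. Htr1f, an inhibitory receptor gene, was at 245.6, 274.1, 316.1 and 339.6 CPM in C57J 1, C57J 2, nude and BALB/c. Htr2c, whose product activates phospholipase C, was at 428.4, 445.8, 536.9 and 461.0 CPM in the same order. Both C57J libraries were below nude and BALB/c for these 2 genes, and for Htr2c nude stood above the rest. Htr7, which signals through Gs, was at 110.8, 118.2, 125.8 and 128.7 CPM, and Htr4, the other Gs-coupled member, at 93.6, 88.3, 93.7 and 103.7 CPM. For both genes BALB/c was the highest library. Htr1b, the inhibitory receptor known as an autoreceptor on serotonin axons and a heteroreceptor elsewhere, was at 14.1, 14.1, 16.4 and 16.8 CPM. Htr2a, the target of classical hallucinogens, was at 8.68, 8.05, 10.2 and 16.7 CPM, with BALB/c standing apart. Htr1a, the autoreceptor of raphe neurons and the target of buspirone, was at 4.34, 4.11, 3.95 and 6.46 CPM. Htr5a, an inhibitory receptor gene, stayed between 2.40 and 2.80 CPM, and Htr1d, a close relative of Htr1b, between 0.249 and 0.448 CPM, with only 57 UMIs in 20145 LS neurons.

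To set the genes against each other, levels were also divided by length, and their order depended on the length used. A UMI stands for 1 molecule, so counts need not scale with either length, and whether they did was not tested. Undivided, the mean level in LS neurons was 468 CPM for Htr2c and 294 CPM for Htr1f. Per kb of exon, the mean level in LS neurons was highest for Htr1f (113.9 CPM per kb), then Htr2c (50.2), Htr7 (35.6), Htr4 (19.3), Htr1b (3.24), Htr2a (1.94), Htr1a (1.05), Htr5a (0.498) and Htr1d (0.102). Per kb of gene span, Htr1b came at the top with 2.77 CPM per kb, followed by Htr2c (1.99), Htr1f (1.62), Htr7 (1.22), Htr1a (1.05) and Htr4 (0.55), with Htr5a, Htr2a and Htr1d at or under 0.207. Htr1b has a short gene and Htr1f a long one, and whether intronic reads were counted is not given in the sources used here. Htr1d was lowest on both scales.

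**Figure D1:**
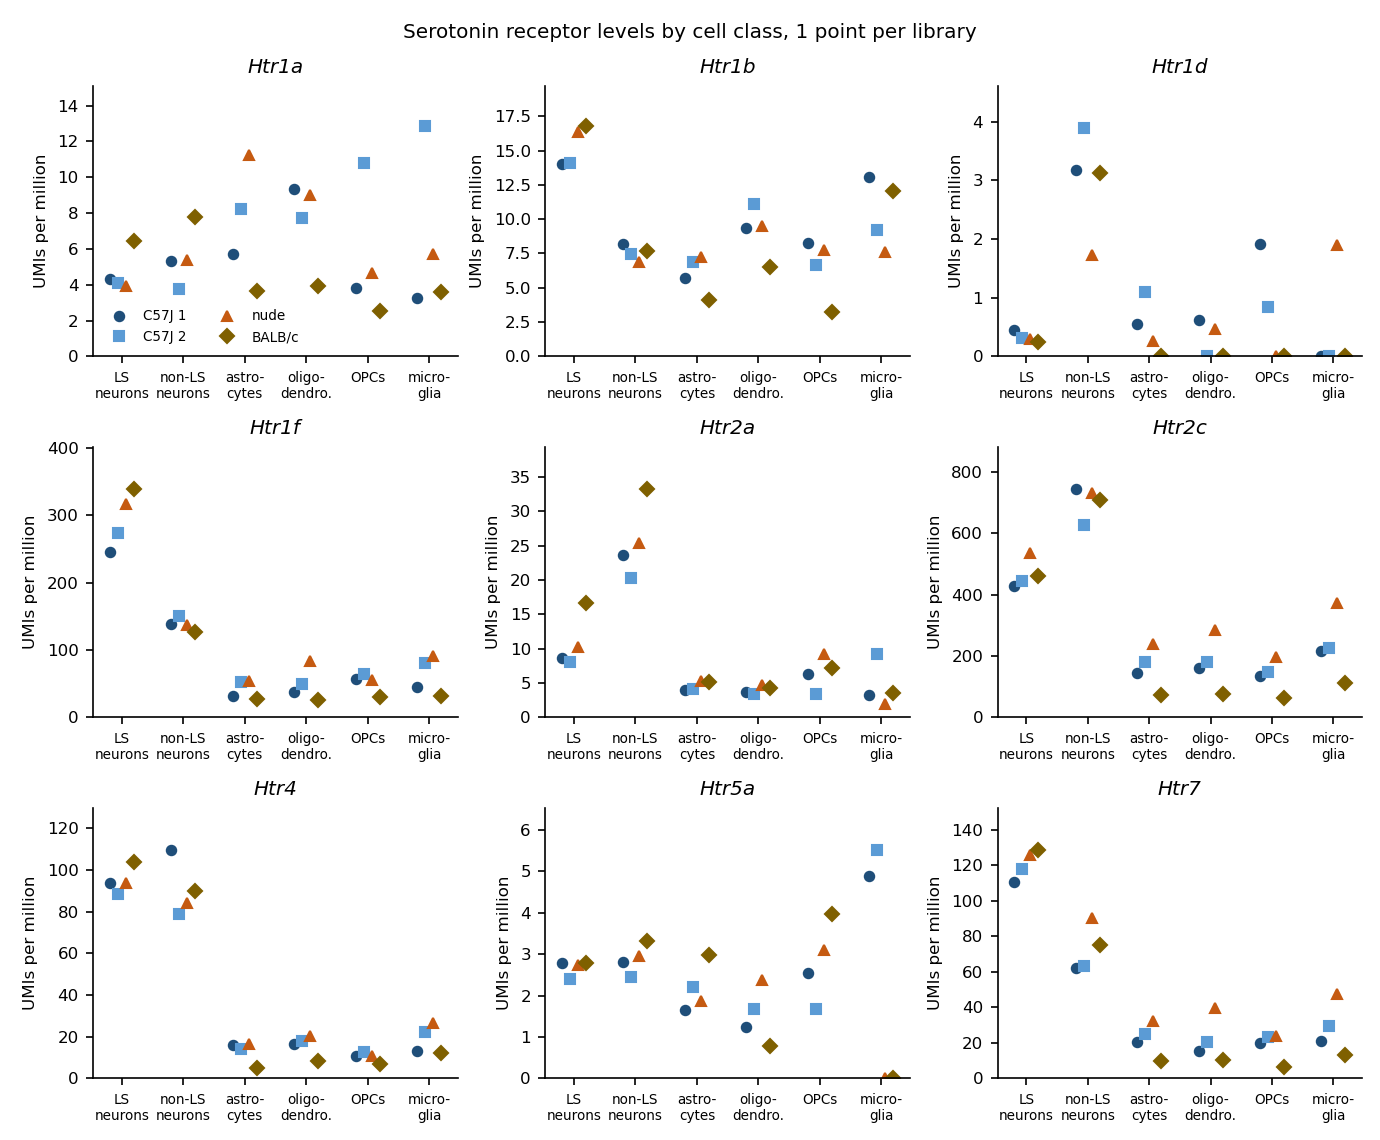
UMIs per 1000000 UMIs (linear axes from 0) of each of the 9 receptor genes in 6 cell classes, with 1 point per library and a symbol for each library (circles C57J 1, squares C57J 2, triangles nude, diamonds BALB/c). In LS neurons Htr2c lies at 428.4 to 536.9 CPM and Htr1f at 245.6 to 339.6 CPM, and the Htr1a points of neurons and glia overlap.

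To find out where neurons stood against glia, summed UMIs of all neurons were compared with those of all non-neuronal nuclei of the same libraries. In this comparison 8 of the 9 receptor genes were higher in neurons, read against 54.4% of all 19675 genes tested that were called and 27.0% called higher. A gene was called at an adjusted p below 0.05 and a log2 fold change beyond 0.5 in edgeR's quasi-likelihood test. The largest differences were those of Htr4 (log2 fold change 3.05 ± 0.23, SE), Htr1f (2.68 ± 0.20) and Htr7 (2.63 ± 0.26), and Htr2c (2.05 ± 0.25), Htr2a (1.91 ± 0.13), Htr1d (1.89 ± 0.57), Htr1b (1.06 ± 0.15) and Htr5a (0.62 ± 0.16) followed. The adjusted p was 0.0212 for Htr1d and 0.0113 for Htr5a in the edgeR test, and at most 0.000551 for the other 6. The neuron classes were not alike for Htr1d, with means of 0.327 CPM in LS neurons, 2.98 CPM in non-LS neurons and 0.427 CPM in non-neuronal nuclei. For Htr1b the means were 15.3, 7.55 and 7.29 CPM in the same order. The Htr5a call was lost in 3 alternatives, among them without C57J 1 (0.54, adjusted p = 0.0537, edgeR), and the Htr1d call was lost without library C57J 2. Htr1a was the exception, with 4.66, 4.00, 4.36 and 6.88 CPM in neurons and 6.41, 8.71, 9.09 and 3.55 CPM in non-neuronal nuclei of C57J 1, C57J 2, nude and BALB/c. Its difference was -0.20 ± 0.33 (adjusted p = 0.603, edgeR), and it was lower in neurons in 3 of the 4 libraries and higher in BALB/c. The neuron gene Slc32a1 had the same pattern, with 66.6, 53.8, 56.4 and 71.2 CPM in neurons. In non-neuronal nuclei Slc32a1 was at 99.8, 93.9, 99.5 and 50.6 CPM in the same order of libraries. The neuron genes Trpc4, Gad2, Snap25 and Rbfox3 were higher in neurons in each library. The cause of the Htr1a pattern was not tested.

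Htr2c and Htr1f UMIs in non-neuronal nuclei varied between libraries. Htr2c was at 151.3, 178.5, 253.3 and 74.7 CPM there in C57J 1, C57J 2, nude and BALB/c, and Htr1f at 38.3, 54.5, 64.9 and 27.7 CPM. Nude was the highest and BALB/c the lowest library for both. Trpc4, the LS neuron channel gene, ran in the same order with 118.5, 172.0, 220.0 and 62.9 CPM, and the summed level of the 5 neuron markers in OLs was 3798 CPM, 4267 CPM, 5552 CPM and 2176 CPM. Htr4, Htr7 and Htr1a ran in this order too, with 17.3, 34.0 and 9.09 CPM in nude and 6.94, 9.70 and 3.55 CPM in BALB/c. BALB/c was also the lowest library for Htr1b and Htr1d. The order did not hold for Htr5a, where BALB/c was highest, at 2.20 CPM against 1.81 to 2.15 CPM, on 93 UMIs in all. For Htr2a, BALB/c was above both C57J libraries. The part of free neuronal RNA in these glial values was not tested. Among glia, microglia had the highest mean Htr2c level with 231 CPM (110.6 to 373.9), and the ranges of all 4 glial classes overlapped. Microglia also had the highest sum of the neuron markers among these classes in each library, at 5006, 6610, 7285 and 3359 CPM in C57J 1, C57J 2, nude and BALB/c. The mean of a receptor gene in a glial class was at most 1.60 times its mean in all non-neuronal nuclei, the highest ratio being that of Htr1d in OPCs, on 4 UMIs.

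To compare shares of nuclei at equal depth, each nucleus was thinned to 2000 UMIs and shallower nuclei were left out, which removed at most 0.560% of the LS neurons of a library but 1.43% to 67.9% of the OLs. OLs were taken as the class that should lack the receptors; their median depth was 1691 to 3835 UMIs per library, against 6411 to 12822 for LS neurons. Htr2c was detected in 40.6% to 46.4% of LS neurons and in 15.0% to 39.0% of OLs, and Htr1f in 29.2% to 37.6% against 5.42% to 12.8%. Htr7 was found in 18.5% to 20.9% of LS neurons and 2.51% to 8.45% of OLs, Htr4 in 13.4% to 14.9% against 1.32% to 4.09%, Htr1b in 2.29% to 3.29% against 1.32% to 1.92%, and Htr2a in 1.69% to 2.87% against 0% to 1.02%. These 6 genes were above OLs in each of the 4 libraries, but at 1000 UMIs per nucleus Htr1b was above them in only 3. The share of all genes that were above OLs in this way was not counted. Htr1a was found in 0.666% to 1.62% of LS neurons and 0.794% to 1.69% of OLs, above OLs in 1 of 4 libraries, and Htr5a in 0.393% to 0.558% against 0.113% to 0.545%, above OLs in 2 of 4. Htr1d was found in 0.0242% to 0.0769% of LS neurons, within the 0% to 0.113% of OLs, and above OLs in 3 of 4 libraries, in which no OL had a UMI. The ranges of LS neurons and OLs overlapped for these 3 genes. At 1000 UMIs Htr1a was above OLs in 0 of 4 libraries and Htr5a and Htr1d in 4 of 4. Counting limits are wide for Htr1d: the upper 95% limits of its share in OLs were lowest in BALB/c (0.244%) and higher in C57J 2 (0.582%), C57J 1 (0.628%) and nude (1.00%; exact Clopper-Pearson), and 0.405% to 0.884% of non-LS neurons had a UMI. Without thinning, 64.9% to 70.7% of LS neurons had an Htr2c UMI, 53.9% to 69.4% an Htr1f UMI, 44.9% to 61.0% an Htr7 UMI and 31.6% to 43.0% an Htr4 UMI, with 26.8% to 39.8%, 8.30% to 13.7%, 3.84% to 6.92% and 3.32% to 3.84% of OLs in the same order. Intervals and limits on shares cover counting error only.

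**Figure D2:**
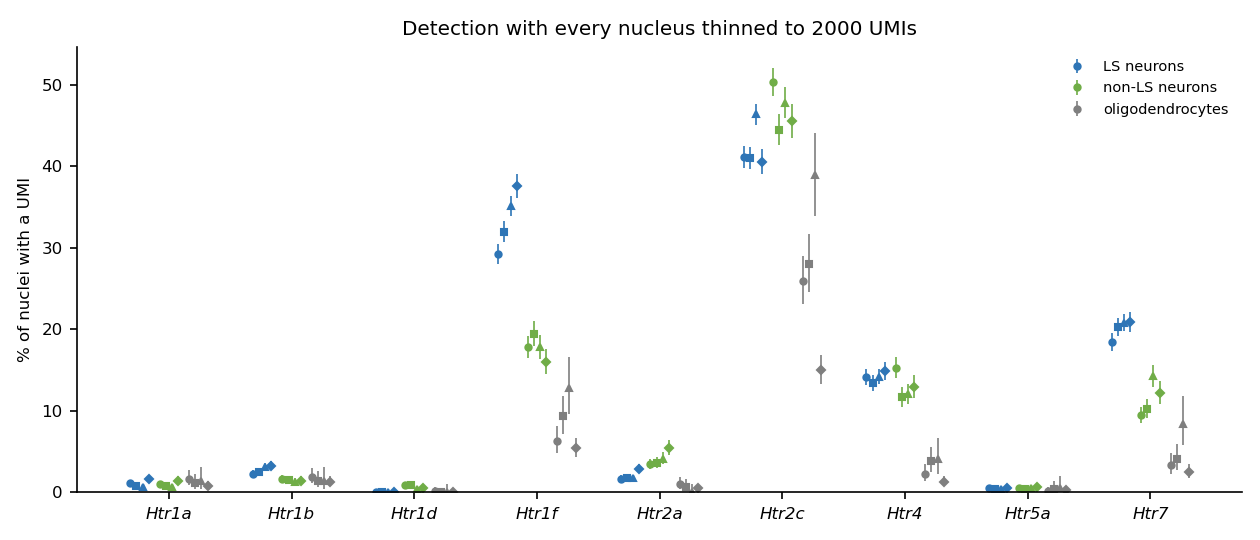
Percent of nuclei with at least 1 UMI of each receptor gene (linear axis) after thinning to 2000 UMIs, with 1 point per library, colors for LS neurons, non-LS neurons and oligodendrocytes, the library symbols of the plot of levels, and bars for 95% Clopper-Pearson intervals. Htr2c and Htr1f reach 46.4% and 37.6% of LS neurons, while the shares of Htr1a and Htr5a in LS neurons overlap those of oligodendrocytes.

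The question of which receptors mark LS neurons among the neurons was addressed by comparing LS with non-LS neurons within the same 4 libraries, with the library as a block. Of 18808 genes tested by edgeR, 22.2% were called, 9.29% higher and 12.9% lower in LS neurons, and of the 9 receptor genes 3 were higher and 3 lower. Htr1f was at 138.6, 150.5, 136.5 and 127.3 CPM in non-LS neurons of C57J 1, C57J 2, nude and BALB/c, below each of its LS values, and was 2.23-fold higher in LS neurons (log2 fold change 1.16 ± 0.09, adjusted p = 2.63e-05). Htr1b was at 8.17, 7.45, 6.88 and 7.70 CPM in non-LS neurons and 2.13-fold higher in LS neurons (1.09 ± 0.08, adjusted p = 2.14e-05). Htr7 was at 61.9, 63.3, 90.5 and 75.2 CPM in non-LS neurons and 1.77-fold higher in LS neurons (0.82 ± 0.07, adjusted p = 2.37e-05). For each of these 3 genes the lowest LS library was above the highest non-LS library, which held for 10.5% of all genes at a mean of at least 1 CPM.

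Htr1d, Htr2a and Htr2c were lower in LS neurons. Htr1d was at 3.18, 3.88, 1.72 and 3.13 CPM in non-LS neurons of C57J 1, C57J 2, nude and BALB/c (log2 fold change -3.10 ± 0.22, adjusted p = 1.29e-05, edgeR). Htr2a was at 23.7, 20.4, 25.4 and 33.3 CPM there (-1.18 ± 0.08, adjusted p = 8.52e-06, edgeR). Htr2c was at 746.4, 628.0, 731.5 and 708.1 CPM there (-0.51 ± 0.06, adjusted p = 0.000253, edgeR). The groups did not overlap for any of these 3 genes, as for 18.8% of all genes in this direction. The Htr2c difference barely passed 0.5 and fell under it in 4 alternatives, to -0.44 without C57J 1 and -0.35 when nuclei were thinned to 1000 UMIs. Htr4 was at 109.6, 78.9, 84.1 and 89.95 CPM in non-LS neurons (0.15 ± 0.07, adjusted p = 0.132), Htr1a at 5.31, 3.76, 5.41 and 7.77 CPM (-0.16 ± 0.11, adjusted p = 0.244), and Htr5a at 2.81, 2.44, 2.95 and 3.31 CPM (-0.03 ± 0.11, adjusted p = 0.832), all by edgeR. The LS and non-LS values of these 3 genes overlapped. Astrocyte markers summed to 272.6 to 489.1 CPM in LS neurons and 209.6 to 532.3 CPM in non-LS neurons, so these ranges overlapped.

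**Figure D3:**
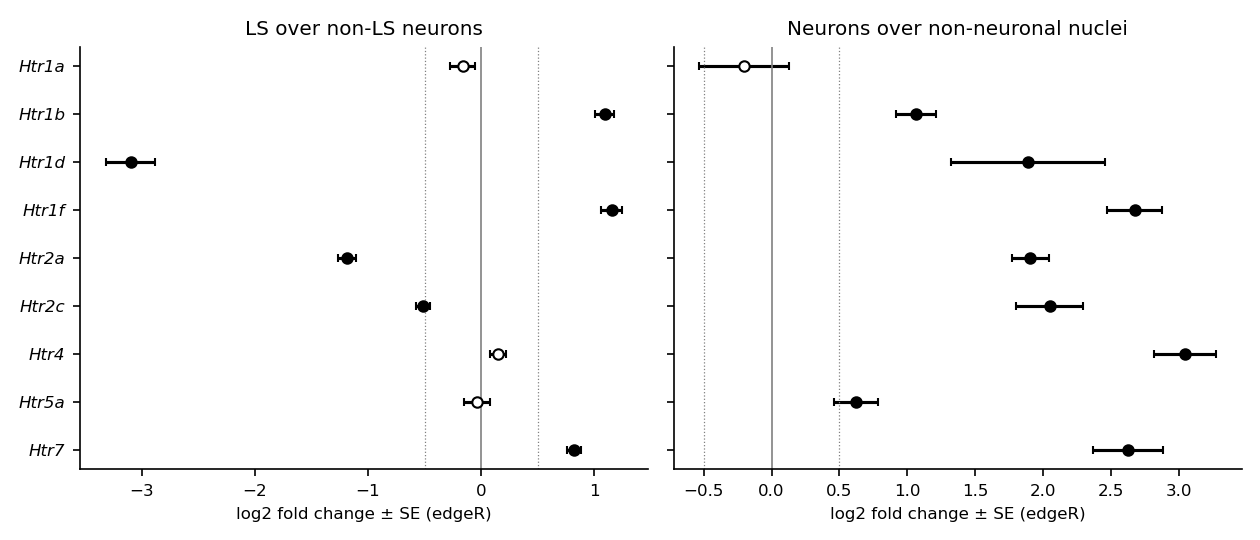
Log2 fold changes of the 9 receptor genes with standard errors (edgeR), for LS over non-LS neurons (left) and neurons over non-neuronal nuclei (right), with filled points for called genes, open points for the others and dotted lines at the size limit of 0.5 in either direction. Htr1f, Htr1b and Htr7 lie at 1.16, 1.09 and 0.82 for LS neurons, and Htr1d lies at -3.10.

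Levels over whole classes hid large differences between clusters, which are given by number and leading genes. Over the 18 LS clusters Htr1f ranged from 38.2 to 737 CPM with a median of 301. The highest were cluster 38 (Col11a1, Igf1, Olfm3; 73 nuclei), with 668.4, 693.8, 875.2 and 712.4 CPM in C57J 1, C57J 2, nude and BALB/c, and cluster 7 (Met, Stac2, Ddr2), with 538.1, 648.7, 722.7 and 701.4 CPM. These clusters overlapped, and cluster 7 was just above each library of the next, cluster 18 (6330411D24Rik, Pde1c), at 532.3, 534.6, 491.6 and 460.3 CPM, but overlapped cluster 16, which reached 561.8 CPM. Cluster 33 (Tafa1, Kynu, Galr1) was the lowest LS cluster, at 40.6, 28.3, 45.0 and 38.8 CPM. The highest level of all was outside the LS class, in cluster 30 (6530403H02Rik, Chst9, Tshz1), with 782.4, 825.3, 1096.5 and 1236.5 CPM, and it overlapped cluster 38.

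Htr2c ranged from 122 to 1677 CPM over the LS clusters, with a median of 368. Cluster 28 (Phex, Gm39185, Tmem132c) was the highest, at 1587.7, 1741.7, 1854.5 and 1523.1 CPM in C57J 1, C57J 2, nude and BALB/c, followed by the non-LS cluster 17 (Onecut2, Bnc2, Dach1) at 1711.0, 1604.7, 1410.3 and 1412.9 CPM and LS cluster 36 (Cpa6, Pappa, Tll1) at 1288.4, 1343.5, 1548.4 and 1371.1 CPM. Neighbours in this order overlapped. At the other end was cluster 7, at 113.1, 107.9, 163.2 and 105.5 CPM, the same cluster that was high in Htr1f. Across the 29 neuron clusters, however, Htr1f and Htr2c were unrelated (r = -0.01 for log2(CPM + 1), given as a description over clusters that share libraries).

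The Gs-coupled receptors peaked elsewhere. Htr4 (ENSMUSG00000026322, on chromosome 18) was at 920.3, 748.0, 854.4 and 678.0 CPM in non-LS cluster 34 (Gm12068, Gpr149, Drd3), which held 436 nuclei, 321 of them from C57J 1, and no other cluster overlapped that range. Among LS neurons, cluster 24 (Drd3, Gfra1, Lncenc1) was the highest with 219.6, 194.2, 285.2 and 264.1 CPM, overlapping cluster 6 (Ndst4, Foxp2, Cdh23) with 202.7, 225.6, 215.3 and 232.5 CPM. Cluster 18 held only 10.2, 11.1, 15.2 and 14.1 CPM of Htr4, and Htr4 varied 34.7-fold over the LS clusters. Htr7 varied 6.54-fold, from 37.2 to 243 CPM. Its 3 highest clusters were LS neurons and overlapped: cluster 36 at 244.7, 203.2, 242.4 and 283.3 CPM, cluster 18 at 250.5, 240.6, 212.7 and 233.9 CPM, and cluster 5 (9530026P05Rik, Otx2os1, Calcr) at 204.2, 208.0, 207.7 and 228.0 CPM. Cluster 18 was therefore near the top for Htr7 and near the bottom for Htr4.

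Htr1b had the clearest single peak among LS neurons. Cluster 3 (Hmcn1, Col15a1, Ano2) was at 42.0, 39.0, 40.2 and 51.5 CPM in C57J 1, C57J 2, nude and BALB/c, cluster 36 at 28.8, 31.1, 27.5 and 35.2 CPM, and cluster 28 at 16.0, 25.04, 23.3 and 24.5 CPM. These clusters held 2052, 252 and 708 nuclei, and neither cluster 3 nor cluster 36 overlapped the next in the order. Htr2a was highest in striatal-like cluster 32 (6530403H02Rik, Foxp2, Gm49906) at 48.9, 34.3, 51.8 and 80.0 CPM and in cluster 17 at 52.5, 39.3, 49.95 and 58.0 CPM. Its highest LS cluster was 27 (Esr1, Gm45194, Otx2os1), at 23.6, 24.4, 32.4 and 29.9 CPM, below each library of cluster 17. Htr1d was highest in striatal-like cluster 32, at 14.5, 20.6, 13.0 and 12.6 CPM, and in cluster 22 (Ebf2, Ebf3, Corin), at 17.3, 14.9, 11.1 and 15.7 CPM, and its mean was at most 1.06 CPM in any LS cluster. For Htr1a and Htr5a each cluster overlapped the next in the order, with means of 1.86 to 12.01 CPM and 0.344 to 5.09 CPM over the neuron clusters.

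**Figure D4:**
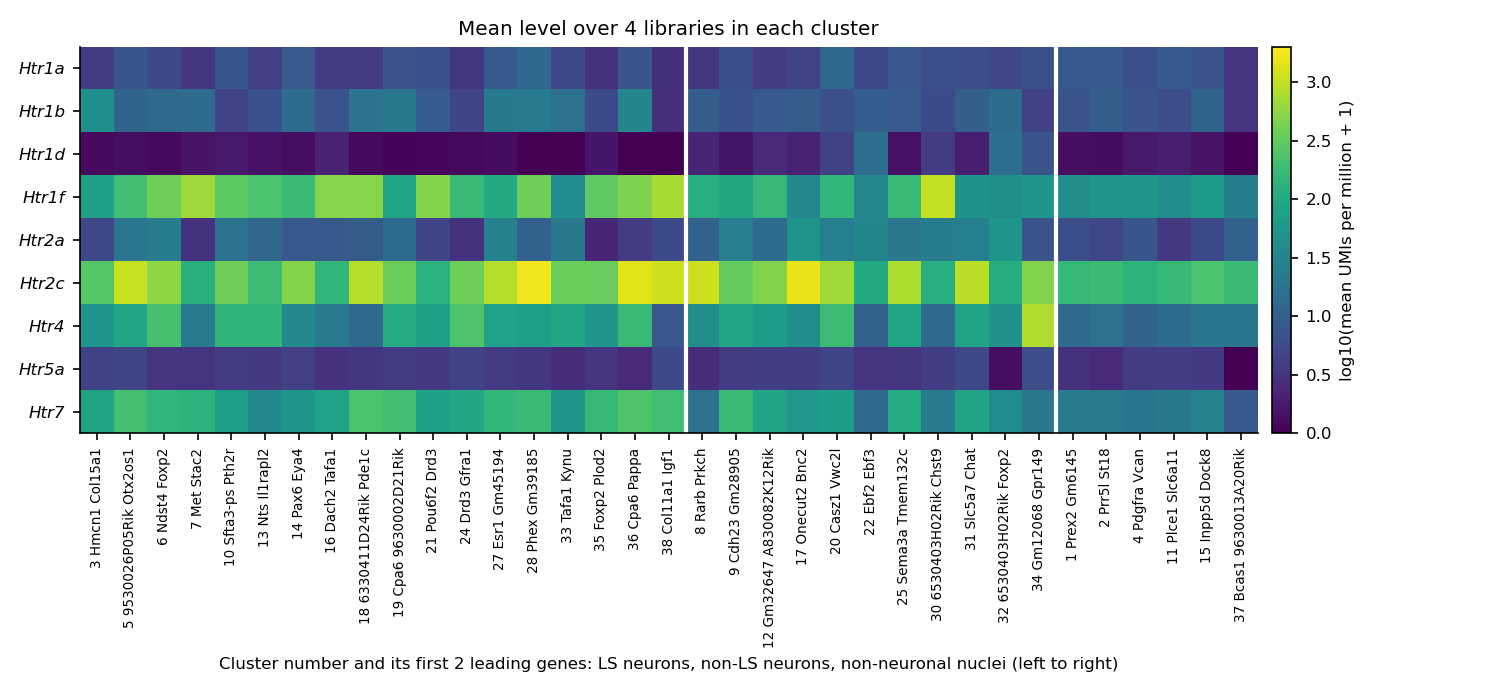
Mean level of the 9 receptor genes over the 4 libraries in each cluster, as log10(CPM + 1) in color, with white lines between the 18 LS clusters, the 11 non-LS neuron clusters and the non-neuronal clusters. Htr1f is highest in clusters 30, 38 and 7, Htr2c in clusters 28, 17 and 36, Htr4 in cluster 34, and Htr1b in cluster 3.

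The genes whose pattern over the 29 neuron clusters was most like that of a receptor were named by Pearson's r of log2(CPM + 1), among genes at 20 CPM or more in at least 1 cluster. For Htr1b they were D430036J16Rik (0.93), Gm26713 (0.85) and Slc26a4 (0.75). D430036J16Rik lies on the opposite strand and overlaps Htr1b, and Gm26713 is 424.7 kb away; whether the counting used the strand is not given in the sources used here, so UMIs of Htr1b and D430036J16Rik may not be separable. For Htr7 they were A830019P07Rik (0.94), a noncoding gene that lies 34.2 kb beyond the 3' end of Htr7 on the same strand, 4930590L20Rik (0.80) and Apoo (0.80). The closest for Htr4 were Glt1d1 (0.79), Disc1 (0.75) and Lpcat2 (0.74), for Htr1f Gm14858 (0.69), Lactb (0.68) and Ajap1 (0.68), and for Htr2c Sema3c (0.61), Mei4 (0.60) and Megf11 (0.60). For Htr2a they were Rtn1, Vwc2l and N4bp2l1 (0.70 each), for Htr1d Gab1 (0.84), Sbk1 (0.84) and Celsr2 (0.83), for Htr1a Gprc5b (0.81), Mef2c (0.73) and Ttc39b (0.70), and for Htr5a Tk2 (0.79), Zup1 (0.75) and Psmb2 (0.71). The last 3 receptor genes have few UMIs per cluster. All points share the 4 libraries.

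Most LS neurons carried UMIs of at least 1 receptor gene. OLs were not counted in this way, but Htr2c alone was found in 15.0% to 39.0% of them at 2000 UMIs. At 2000 UMIs per nucleus, 71.3% (C57J 1), 72.3% (C57J 2), 76.3% (nude) and 77.0% (BALB/c) of LS neurons had a UMI of at least 1 of the 9 genes, and 30.03%, 31.5%, 35.8% and 35.3% had UMIs of at least 2. Pairs of Htr1f, Htr2c, Htr4 and Htr7, the 4 genes with the most UMIs, were compared with the number of nuclei expected if the genes were independent within each cluster. Htr1f and Htr2c were found together in 2949 nuclei, 1.01 to 1.10 times the expected number over the 4 libraries, and Htr2c and Htr7 in 2090 nuclei, 1.01 to 1.09 times. The other 4 pairs spanned 1 over the libraries, and Htr1f with Htr4 ran from 0.92 to 1.05. At 1000 UMIs the pairs above 1 in all libraries were Htr2c with Htr7 (1.01 to 1.15) and Htr4 with Htr7 (1.06 to 1.24), while Htr1f with Htr2c spanned 1 (0.985 to 1.17). Without regard to cluster, Htr2c and Htr7 coincided in 1.17 to 1.27 times the number given by multiplying their shares.

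To compare backgrounds, the nude and BALB/c libraries were set against both C57J libraries within each cell class. Nude mice, which are BALB/c nude, stood on the same side as BALB/c. The comparison therefore does not separate immune state from strain, and an effect of immune state was not tested. No receptor gene was called in any of 6 classes by edgeR or by DESeq2. Of all genes tested, edgeR called 2.17% in LS neurons, 1.05% in non-LS neurons, 0.0571% in astrocytes, 0.0713% in OLs, 0.22% in OPCs and 0.0% in microglia, where 452 of 8872 genes had an unadjusted p below 0.05 and DESeq2 called 15. The tests covered 9, 9, 8, 7, 6 and 4 receptor genes in these classes, and 4 of them in LS neurons and 2 in non-LS neurons had an unadjusted p below 0.05, against 2703 of 18504 and 2210 of 17119 of all genes. Htr1f came closest in LS neurons, with both C57J libraries (245.6 and 274.1 CPM) below nude and BALB/c (316.1 and 339.6 CPM) and a log2 fold change of 0.36 ± 0.08 (adjusted p = 0.0857, edgeR). DESeq2 gave an adjusted p of 0.0235 at 0.37, under the size limit. Within batch 2, where C57J 2 alone stood for C57J, the change was 0.31 (adjusted p = 0.218, edgeR). Nude and BALB/c were both above both C57J libraries for 18.4% of all genes.

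Htr2a had the largest change in LS neurons, 0.71 ± 0.25 (adjusted p = 0.252, edgeR), and it rested on BALB/c: its 16.7 CPM stood against 10.2 CPM in nude and 8.68 and 8.05 CPM in C57J, and the change was 0.30 without that library and 0.79 within batch 2. Without the filter on low counts Htr2a was called, at 0.72 (adjusted p = 0.0401, edgeR). Htr2c changed by 0.22 ± 0.08 (adjusted p = 0.303), Htr7 by 0.18 ± 0.07 (adjusted p = 0.332) and Htr1b by 0.26 ± 0.12 (adjusted p = 0.396) in the edgeR test, with within-batch values of 0.21, 0.15 and 0.28. For each of these 3 genes, nude and BALB/c were above both C57J libraries. Htr4, Htr1a, Htr5a and Htr1d had changes of 0.14, 0.33, 0.11 and -0.50 (adjusted p 0.571 to 0.895, edgeR). In non-LS neurons, Htr7 had the smallest p, with 61.9 and 63.3 CPM in C57J against 90.5 and 75.2 CPM in nude and BALB/c (0.41 ± 0.11, adjusted p = 0.171, edgeR; 0.43 within batch 2). Htr1f went the other way there, at -0.12 ± 0.09 (adjusted p = 0.663, edgeR; -0.15 within batch 2).

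The same comparison was made within 26 neuron clusters that had at least 50 nuclei in every library, 16 of them LS neurons. Among 169 tests of receptor genes, 4 were called by edgeR, against 0.959% of all 292175 tests of a gene in a cluster. Htr1f was higher in nude and BALB/c in 3 LS clusters. In cluster 3 it was at 56.9 and 60.6 CPM in C57J 1 and C57J 2 and at 91.9 and 93.7 CPM in nude and BALB/c (log2 fold change 0.68 ± 0.11, adjusted p = 0.0128, edgeR, with 0.969% of genes called higher). This call held in DESeq2, and the change was 0.63 to 0.71 over the alternatives. The run without C57J 1 is the run within batch 2, and each run without a library left no replicate on that side. In cluster 24 the values were 117.7, 130.1, 192.7 and 223.2 CPM (0.79 ± 0.14, adjusted p = 0.0151, edgeR; 1.02% called, 0.499% higher), and the call was lost within batch 2 (adjusted p = 0.0916). In cluster 14 (Pax6, Eya4, Sel1l3) they were 148.5, 138.4, 201.9 and 221.3 CPM (0.59 ± 0.11, adjusted p = 0.0336, edgeR; 0.92% called, 0.375% higher), and the call was lost in DESeq2 (adjusted p = 0.0826) and without C57J 1, C57J 2 or BALB/c. In all 3 clusters nude and BALB/c stood clear of both C57J libraries. Htr2c was called in cluster 3 alone, at 227.8 and 209.7 CPM in C57J and 302.4 and 346.6 CPM in nude and BALB/c (0.58 ± 0.09, adjusted p = 0.0120, edgeR), in each alternative run.

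Over the 16 LS clusters, Htr1f had a positive change in 15, with a median of 0.32 and the libraries of the groups apart in 11. Htr7 was positive in 15 and Htr2c in 14 (medians 0.17 and 0.13). Of the LS clusters tested, Htr1b was positive in 13 of 15, Htr2a in 11 of 13 and Htr1a in 9 of 10. Htr4 was positive in 11 of 16 and Htr5a in 2 of 3. The share of all genes that were apart or positive in as many clusters was not counted. The median of all genes was between -0.01 and 0.00 in each cluster. Among 10 non-LS clusters Htr1f was positive in 5, from -0.70 in striatal-like cluster 8 (adjusted p = 0.106, edgeR) to 0.56 in cluster 30 (adjusted p = 0.103). These clusters share the 4 libraries and are not independent. Whether the change of Htr1f differed between LS and non-LS neurons was tested directly after the data had been seen. In that test 0.526% of 18808 genes were called, passing both the limit on adjusted p and the size limit. The difference of the changes of Htr1f was 0.47 ± 0.08 (adjusted p = 0.0381, edgeR), below the size limit. It did not hold in all settings: the adjusted p was 0.0804 with clusters 9 and 25 counted as LS neurons, 0.185 without C57J 1 and 0.0579 without BALB/c. With each cluster weighted equally, the log2 ratio of nude and BALB/c to C57J was 0.28 in LS and 0.26 in non-LS neurons. This is a ratio of mean CPM over clusters, so clusters with much Htr1f weigh most. Among non-LS neurons that was cluster 30, with a mean of 985 CPM against a median of 166 CPM over all neuron clusters. The median change over the 10 non-LS clusters was -0.04. The part of cluster 30 in the 0.26 was not tested. Since nude and BALB/c had 1 library each, background and library cannot be told apart in this design.

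**Figure D5:**
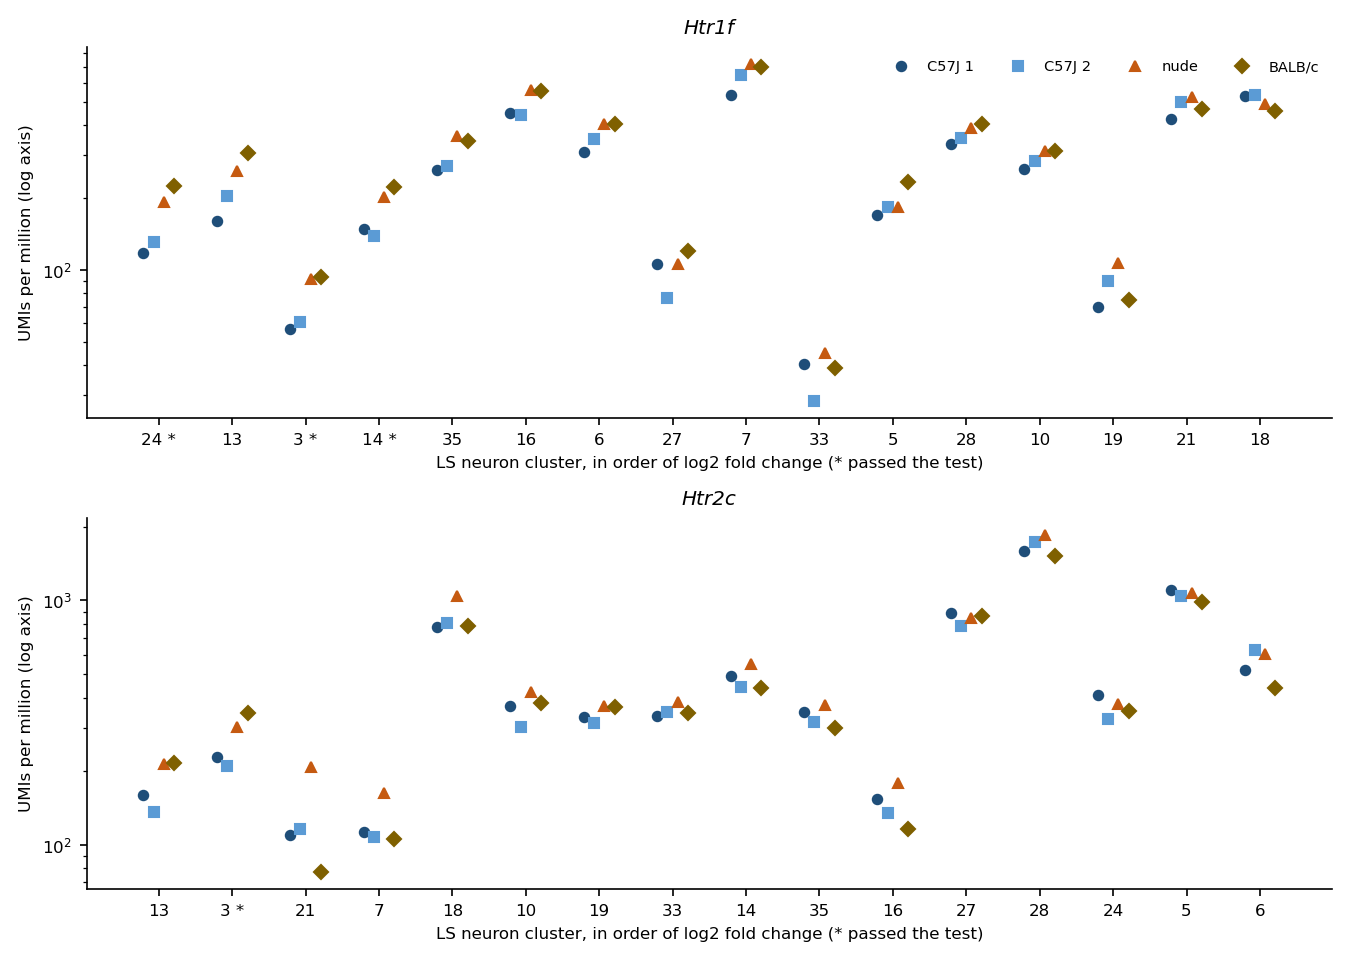
CPM of Htr1f (top) and Htr2c (bottom) on a log axis in the 16 LS clusters tested, with 1 point per library, clusters ordered by the log2 fold change of nude and BALB/c over C57J, and asterisks for called changes. Htr1f is marked in clusters 24, 3 and 14 and Htr2c in cluster 3, where nude and BALB/c lie above both C57J libraries.

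The 46 other serotonin pathway genes were followed in the same comparisons. Among 31 signalling genes, 5 were higher and 3 lower in LS than in non-LS neurons, beside 9.29% and 12.9% of all genes (median log2 fold change 0.02, against -0.01 over all genes). Kcnj3, a subunit of the potassium channels that Gi/o-coupled receptors open, was at 456 CPM in LS and 251 CPM in non-LS neurons (0.94 ± 0.04), and Gnai1, an inhibitory G protein alpha subunit, at 173 and 103 CPM (0.83 ± 0.04). Kcnj5, another subunit of these channels, was lower (-3.53 ± 0.21; 0.439 and 5.14 CPM). Of 7 genes for synthesis, transport and breakdown, 2 were higher and 4 lower, with Slc18a2, the vesicular monoamine transporter, at 33.4 CPM in LS and 10.5 CPM in non-LS neurons (1.74 ± 0.07) and Ddc, the decarboxylase that makes serotonin, at 1.71 and 10.6 CPM (-2.59 ± 0.13). Of 4 other receptor genes tested, Htr5b alone was called (1.30 ± 0.26; 1.25 and 0.510 CPM). The adjusted p of these edgeR calls was at most 0.00388. Htr2b was at 3.92 to 6.67 CPM in LS neurons, and Htr3a, Htr3b and Htr6 at means of 0.163, 0.0439 and 1.52 CPM.

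Between neurons and non-neuronal nuclei, 29 of 42 pathway genes were called (13 higher and 6 lower of 31 signalling genes, median 0.28 against 0.03 over all genes), beside 54.4% of all genes called, 27.0% higher and 27.4% lower. Maob, a monoamine oxidase, was lower in neurons (-2.34 ± 0.12; 6.58 against 38.5 CPM, and 74.3 CPM in astrocytes), as were Gnao1 (-1.40 ± 0.07), Gnai2 (-1.08 ± 0.06) and Plcb3 (-2.91 ± 0.21), and Kcnj6, a channel subunit, was higher (2.79 ± 0.21). Between backgrounds, 1 of 41 pathway genes was called in LS neurons and 0 of 39 in non-LS neurons by edgeR, beside 2.17% and 1.05% of all genes. Plcb2, a phospholipase C that Gq can activate, was at 2.19 and 2.98 CPM in C57J 1 and C57J 2 and at 8.87 and 8.45 CPM in nude and BALB/c (1.78 ± 0.21, adjusted p = 0.0109, edgeR). Its rise was called in clusters 13 (2.48 ± 0.30; 0.882% of all genes called), 18 (3.06 ± 0.65; 2.47%) and 21 (2.61 ± 0.40; 1.12%), on 1 to 118 UMIs per library. Within clusters, Mpdz, a scaffold that binds the Htr2c protein, was lower in nude and BALB/c in cluster 3 (-0.54 ± 0.10; 128.1, 122.2, 84.9 and 85.0 CPM; 2.05% of all genes called), where Htr2c itself was higher, and in cluster 7 (-0.70 ± 0.16; 2.04%). Adcy2, an adenylyl cyclase, was lower in cluster 35 (-2.68 ± 0.19; 345.8, 336.6, 66.3 and 38.5 CPM; 1.85% of all genes called), while Gnal (0.61 ± 0.13) and Plcb4 (0.58 ± 0.15) were higher there. Adcy8 was higher in cluster 18 (0.99 ± 0.18) and lower in cluster 21 (-0.89 ± 0.17).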

How the data were processed

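Single-nucleus RNA was sequenced in 4 libraries of mouse LS. The submitters' processing notes name Cell Ranger 7.0.1 and build mm10. The authors deposited unnormalized UMI counts for each gene and barcode. Whether the counting used introns or strand is not given in the sources used here. Barcodes were kept at 200 to 6000 genes, 300 to 50000 UMIs and under 2% of UMIs from mitochondrial genes, and predicted doublets were removed at 0.8% per 1000 nuclei (9.66% to 11.9% of a library).

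The libraries were clustered together (Leiden, resolution 1, 6 nearest nuclei from each library) without 55 serotonin pathway genes, 6 sex-linked genes and 62 genes that differ between backgrounds. Classes were named from marker lists. UMIs were summed per class and library and given per 1000000 UMIs of that class (CPM, mean and range over libraries). Sums were tested with edgeR 4.0.16 in R 4.3.3 (filterByExpr, TMM, quasi-likelihood F test) over all genes, with Benjamini-Hochberg adjustment. A gene was called at an adjusted p below 0.05 and a log2 fold change beyond 0.5. Contrasts of classes had the library as a block, since each library holds both classes of the same mice. Alternatives were DESeq2 1.42.0, median-of-ratios size factors, no filter on low counts, doublets kept, nuclei thinned to 1000 UMIs, finer clusters and leaving out each library. Shares of nuclei were taken after thinning each nucleus to 2000 UMIs. The p-values measure the spread between libraries of pooled mice. In the background comparison that spread also holds nude against BALB/c and the different batches of the C57J libraries. The edgeR and DESeq2 fits were tested on simulated data. Promoters came from RefSeq and gene models from GENCODE.

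The receptor genes, gene lists and markers were chosen with earlier results of these data known. All 9 receptor genes are named. Of 46 other serotonin pathway genes, those called are named, at most 5 per comparison by smallest adjusted p, with the other receptors by their range. For each receptor the 3 genes of highest Pearson correlation over neuron clusters are named.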

Additional observations from a re-analysis of the deposited data

Results flagged for a closer look

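The change of Htr1f, the inhibitory receptor gene, between backgrounds was compared between LS and non-LS neurons in a direct test that was chosen after seeing the data. The log2 fold change of nude and BALB/c over C57J was 0.36 in LS neurons and -0.12 in non-LS neurons, a difference of 0.47 ± 0.08 (adjusted p = 0.0381, edgeR, 2 libraries against 2). This difference was below the size limit of 0.5 and was not called. In LS neurons nude and BALB/c were both above both C57J libraries (316.1 and 339.6 against 245.6 and 274.1 CPM), and in non-LS neurons both were below them (136.5 and 127.3 against 138.6 and 150.5 CPM). The adjusted p ranged from 0.00489 without nude to 0.185 without C57J 1, with 0.0127 without C57J 2, 0.0579 without BALB/c and 0.0804 with clusters 9 and 25 joined to the LS neurons. With equal weight for each cluster the change was 0.28 in LS and 0.26 in non-LS neurons. That is a ratio of mean CPM, in which non-LS cluster 30, with the highest mean Htr1f level (985 CPM), weighs most. The median change over the 10 non-LS clusters tested was -0.04. Striatal-like cluster 8, where Htr1f was at 142 CPM in C57J and 86.8 CPM in nude and BALB/c on average, held 724 nuclei in C57J 1 and 245 to 363 in the others. Cluster 30 was uneven too, with 270, 170, 140 and 65 nuclei in C57J 1, C57J 2, nude and BALB/c. The part of this mix of clusters in the difference was not tested.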

How the results depend on the processing

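Of the values of log2 fold changes under the alternatives, 360 kept their direction and their side of the thresholds, 16 lost a call, 2 gained one and 13 turned. Those that turned were small. Between backgrounds in LS neurons they were Htr1a (-0.078 without BALB/c to 0.64 without nude) and Htr5a (-0.018 without C57J 2 to 0.12 without nude). In non-LS neurons they were Htr1b (0.016 within batch 2, and -0.19 without BALB/c to 0.0059 without nude), Htr1d (0.19 thinned), Htr1f (0.26 with equal weight for each cluster), Htr2c (-0.068 without C57J 2 to 0.080 without BALB/c) and Htr4 (0.18 within batch 2). Between LS and non-LS neurons they were Htr4 (-0.061 thinned) and Htr5a (0.19 thinned, and -0.071 without C57J 1 to 0.025 without BALB/c). Between neurons and non-neuronal nuclei Htr1a ran from -0.67 without BALB/c, where it was called, to 0.021 without C57J 2, with 0.010 without nude. The cause was not tested.

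Counts of called genes moved more. In LS neurons 402 genes were called between backgrounds by edgeR, 641 by DESeq2, 970 without the filter on low counts (1 receptor gene, Htr2a), 174 with nuclei thinned to 1000 UMIs and 61 to 1170 without a library. In non-LS neurons the counts were 179, 414, 1053 and 68 in the same order, 326 within batch 2 and 0 to 1295 without a library. Astrocytes gave 8, 96, 421 and 0, and 0 to 1210 without a library. OLs gave 9, 84, 247 and 3, then 1 with median-of-ratios size factors or with doublets kept, and 0 to 768 without a library. OPCs gave 24, then 181 without the filter, 52 with doublets kept, 9 thinned, 84 within batch 2 and 88 to 512 without another library. Microglia gave 0, then 15 by DESeq2, 89 without the filter, 53 with doublets kept and 0 to 950 without a library. Without nude, BALB/c stood alone against C57J and was assumed to vary like the 2 C57J libraries, which give the only spread. Receptor genes were then called in astrocytes, OLs, OPCs and microglia, where no receptor gene was called with all libraries. Those calls rest on 1 BALB/c library and are not read as changes in glia. The 2803 calls of genes within clusters became 1747 in DESeq2 and 2564 to 6541 without a library. The 4 receptor calls within clusters became 7 without C57J 2 or BALB/c and 15 without nude. Between LS and non-LS neurons 4170 genes were called, and 2213 thinned. At 1000 UMIs a mean of 55.2% of LS neurons had at least 1 receptor gene and 15.3% at least 2, against 74.2% and 33.2% at 2000.

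No paired analysis was possible in the background comparison because each library was a separate pool of mice of 1 group. In the class contrasts, leaving out the replicate block gave 2922 and 9589 calls in place of 4170 and 10702, with 6 and 8 receptor genes as before. The shares of Htr1a, Htr1d and Htr5a in LS neurons overlapped those in OLs, and the part of depth in this was not tested. Nude and BALB/c are limited by 1 library each. The joining of clusters 9 and 25 to LS neurons, the equal weights and the test of the difference were chosen after seeing the data.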

Other observations

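Slc18a2, the vesicular monoamine transporter gene, was highest in LS cluster 19 (Cpa6, 9630002D21Rik, Mctp2), where it was at 122.6 to 153.0 CPM over the 4 libraries, against 27.4 to 39.5 CPM in all LS neurons and 9.41 to 10.96 CPM in non-LS neurons. The genes that mark serotonin neurons were near 0: Fev had 2 UMIs in all neurons, and the highest mean of Slc6a4, the serotonin transporter, was 0.949 CPM in any cluster, on 2 UMIs. Tph2, the serotonin synthesis enzyme of the brain, had its highest cluster mean at 1.36 CPM, on 3 UMIs.

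Htr5b, a receptor gene outside the 9 studied, was at 9.59 CPM (5.77 to 14.1) in LS cluster 14, against 1.25 CPM over all LS neurons. Maob was at 78.1 CPM (50.8 to 101.5) in astrocyte cluster 1, and Ddc at 34.3 CPM (24.1 to 52.9) in OLs, above its 10.6 CPM in non-LS neurons.

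Over the 29 neuron clusters the strongest relation among the receptor genes themselves was that of Htr1d and Htr7 (r = -0.70 for log2(CPM + 1)), followed by Htr1f and Htr2a (-0.48). These are descriptions over clusters that share the 4 libraries. Htr1d was low in most of these clusters, with a median of 0.447 CPM and a highest mean of 15.1 CPM.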
